A study of Mus musculus with 8 samples.

Results

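The vascular side of red skeletal muscle was followed through 10 genes that mark endothelial cells or control vessel growth, namely Pecam1, Cdh5, Kdr, Flt1, Tek, Tie1, Egfl7, Vegfa, Vegfb and Hif1a. They were chosen by name, and every probe whose accession matched them was used, which gave 12 probes of 55681 and 10 genes of the 20972 with a named probe. RNA came from the red portion of frozen gastrocnemius, a calf muscle, of C57BL/6J mice backcrossed for 5 generations and aged 14 to 16 weeks. There were 4 wild type animals and 4 animals homozygous for a mutant form of Pus1, the gene of pseudouridine synthase 1, a tRNA-modifying enzyme. Each of 4 two-colour arrays on 1 slide held 1 wild type and 1 mutant sample of the same sex, with 2 male pairs (arrays 1 and 2) and 2 female pairs (arrays 3 and 4). The mutant carried Cy5 on arrays 1 and 3 and Cy3 on arrays 2 and 4. Neither the altered part of Pus1 nor the number of litters is given in the labels.

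Blood capillaries run along every muscle fibre and are densest in red, oxidative muscle. Their endothelial cells are joined by PECAM-1 and VE-cadherin (Cdh5), and respond to VEGF-A through the receptors encoded by Kdr and Flt1. VEGF-A is made by muscle fibres and other cells, and its gene is a classical target of the oxygen-regulated transcription factor HIF-1, whose alpha subunit is encoded by Hif1a. The angiopoietin receptor Tek and its relative Tie1 control vessel stability, and Egfl7 encodes a matrix-bound protein secreted by endothelial cells.

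As a check of the labels, the Pus1 probe had log2 levels from 8.42 to 9.13 in the 4 wild types and from 6.60 to 7.12 in the 4 mutants, and exceeded background clearly in 4 wild types and 0 mutants. Markers of skeletal muscle fibres were measured for 12 of 12 listed genes, with a summed log2 level from 20.55 to 21.34 over the 8 samples. In the 2 male wild types 45.0% and 47.3% of probes exceeded background clearly, against 39.7% to 42.5% in the other 6 samples, so those 2 samples stood apart. Endothelial RNA was measured throughout: 30 of 31 further endothelial markers passed the filter on dim probes, and their summed log2 level lay from 15.88 to 16.17. All 12 probes of the 10 genes were well above background in 8 of 8 samples and saturated in 0, so none of the 10 was lost to the filter. In whole muscle RNA, fewer cells of a type and less RNA per cell cannot be told apart.

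Promoters of 3 genes are shown, since Flt1 had the most negative genotype ratio among the 10 genes, Egfl7 passed the test of level between the sexes and Vegfa the test of a genotype effect that differs between the sexes. Each is the 250 bases before the RefSeq start (build GRCm38.p6), 5′ to 3′ on the gene's strand, with capitals at matches on either strand to the HIF core motif (ACGTG or GCGTG) or an ETS core motif (AGGAAG or CGGAAG). ETS factors are the family of transcription factors best known for driving endothelial genes.
Flt1, chr5:147726012-147726261, minus strand: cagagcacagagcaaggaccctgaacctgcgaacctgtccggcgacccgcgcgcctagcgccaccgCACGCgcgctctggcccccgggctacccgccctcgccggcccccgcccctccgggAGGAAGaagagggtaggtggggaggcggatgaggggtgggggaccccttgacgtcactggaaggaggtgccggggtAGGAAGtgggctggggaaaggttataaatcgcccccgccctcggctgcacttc
Egfl7, chr2:26580833-26581082, plus strand, the first of 3 starts: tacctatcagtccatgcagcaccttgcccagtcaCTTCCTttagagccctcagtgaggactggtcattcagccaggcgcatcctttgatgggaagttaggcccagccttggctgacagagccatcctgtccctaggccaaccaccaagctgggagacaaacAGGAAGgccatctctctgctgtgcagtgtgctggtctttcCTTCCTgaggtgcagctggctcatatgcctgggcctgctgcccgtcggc
Vegfa, chr17:46032378-46032627, minus strand, the first of 2 starts: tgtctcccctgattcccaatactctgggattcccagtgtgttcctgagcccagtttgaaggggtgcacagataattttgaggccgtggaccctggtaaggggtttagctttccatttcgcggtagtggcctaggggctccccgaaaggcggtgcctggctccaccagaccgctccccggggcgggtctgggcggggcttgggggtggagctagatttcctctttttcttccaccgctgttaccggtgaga
The Flt1 window holds 1 GCGTG, read on the reverse strand, and 2 AGGAAG matches, that of Egfl7 holds 3 AGGAAG matches, and that of Vegfa holds neither motif. The window of the second Vegfa start, chr17:46025164-46025413, holds 1 GCGTG and 1 ACGTG. It lies downstream of the first start, within the gene, so its matches are not in the sequence before the first start. The table has promoters for 8 of the 10 genes. Of their 11 promoters 5 hold at least 1 HIF core, where 38.6% of all 32851 promoters do. That count includes the window of the second Vegfa start. At least 1 ETS core is held by 4, those of Flt1, Tie1 and 2 Egfl7 starts, where 39.2% of all promoters hold one. These matches describe the letters of the windows and say nothing of binding.

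The first question was whether the Pus1 mutation altered the vascular transcripts of red muscle. None of the 10 genes passed the genotype test. In the limma fit over 11453 genes with a dye term, 0 of the 10 had an adjusted p under 0.05 and 0 an unadjusted p under 0.05, where 2 of all genes (0.0175%) were called and 672 (5.87%) had an unadjusted p under 0.05. In 3 genes the fitted value was higher in mutants and in 7 lower, with a median log2 ratio of mutant over wild type of -0.053 against 0.012 over all genes. The median size of the ratio, regardless of sign, was 0.065 for the 10 genes and 0.074 for all genes. Levels of the genotypes overlapped in each of the 10 genes, while 1.22% of all genes had genotypes that did not overlap. None had a ratio of 1 sign on 4 of 4 arrays, which 10.5% of all genes had. Levels below are log2 brightness of a probe and cannot be ranked between genes.

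**Figure D1:**
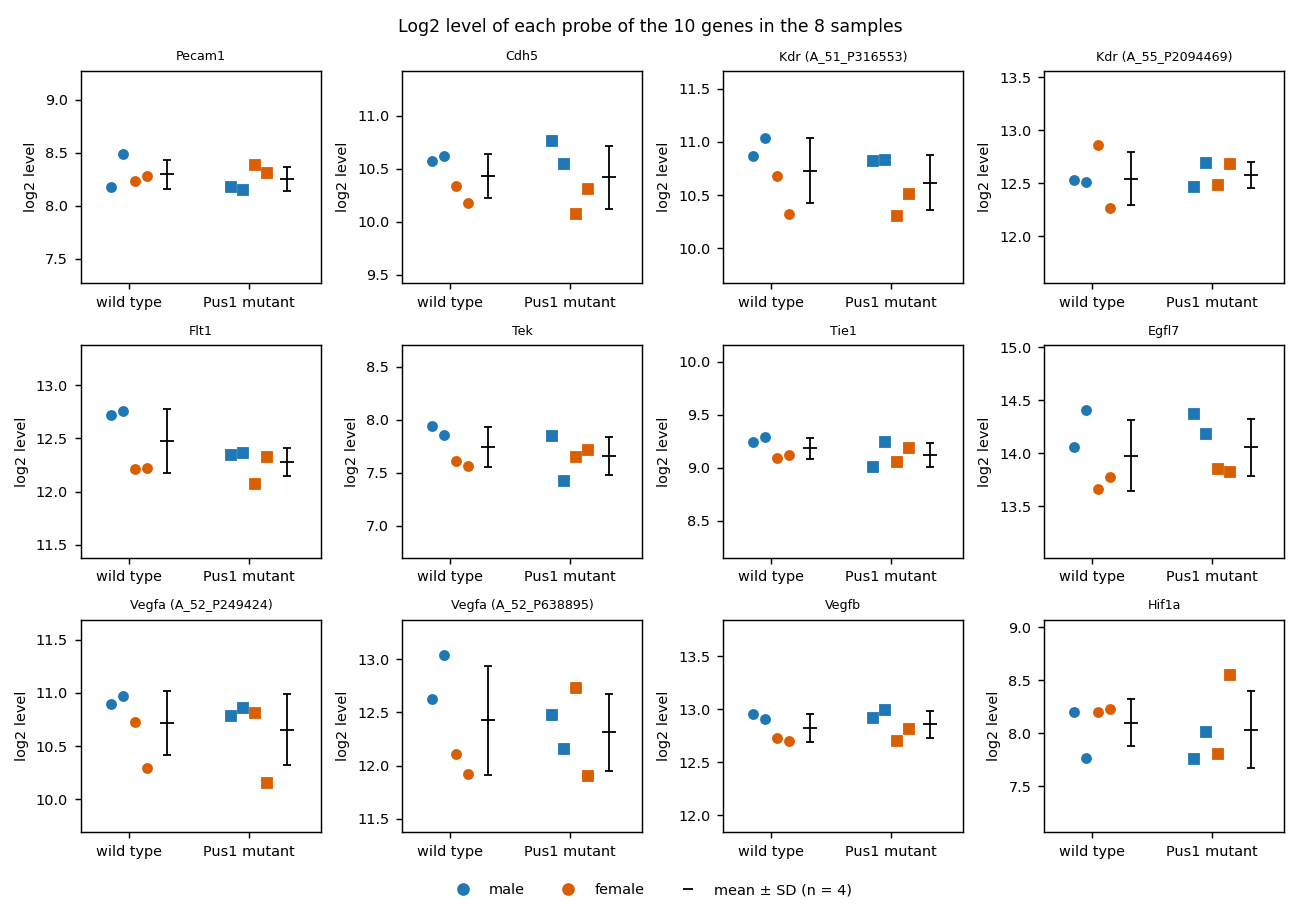
Log2 level (y axis) of each of the 12 probes in wild type (circles) and Pus1 mutant (squares) samples, with males in blue, females in orange and the mean ± SD of 4 samples in black; each panel spans the same 2 log2 units. Wild type and mutant levels overlap in all 12 panels, while males lie above females for Cdh5, Flt1, Egfl7, Vegfb and the Kdr probe A_51_P316553.

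Neither junction gene passed the genotype test. Cdh5, the adhesion molecule of endothelial junctions, was measured at 10.57, 10.62, 10.34 and 10.18 in the wild types of arrays 1 to 4 and at 10.76, 10.54, 10.07 and 10.31 in the mutants of the same arrays. The group means were 10.43 ± 0.21 (SD, n = 4) and 10.42 ± 0.30 (SD, n = 4). The fitted log2 ratio of Cdh5 was -0.0087 ± 0.10 (SE), with a 95% interval from -0.27 to 0.25 and a limma adjusted p of 0.985. The ratio is small against its error, and changes of any size inside the interval are compatible with the 4 arrays. Pecam1, the platelet and endothelial adhesion molecule CD31, stood at 8.17, 8.49, 8.23 and 8.29 in wild types and 8.18, 8.14, 8.38 and 8.31 in mutants. Its ratio was -0.043 ± 0.089 (SE, limma adjusted p = 0.920), and the highest and lowest levels both came from array 2, the second male pair.

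The VEGF receptors differed in how closely their arrays and probes matched. Flt1, the VEGFR1 gene, whose product binds VEGF-A tightly and in its soluble form acts as a decoy, was at 12.72, 12.76, 12.21 and 12.22 in wild types and at 12.34, 12.36, 12.08 and 12.33 in mutants. Both male wild types stood above the other 6 samples. Its ratio of -0.20 ± 0.11 (SE) was the most negative of the 10 genes, with array values of -0.38, -0.40, -0.13 and 0.11 and an interval from -0.48 to 0.077 (limma adjusted p = 0.707). Kdr, the VEGFR2 gene and main signalling receptor for VEGF-A, has 2 probes on the array. The brighter probe, A_55_P2094469, read 12.54, 12.51, 12.87 and 12.26 in wild types and 12.47, 12.69, 12.48 and 12.68 in mutants, with a ratio of 0.036 ± 0.089 (SE, limma adjusted p = 0.931). Its array ratios were -0.070, 0.18, -0.38 and 0.42, negative where the mutant carried Cy5 and positive where it carried Cy3. The other, A_51_P316553, is printed 10 times on each array and read 10.87, 11.04, 10.68 and 10.32 in wild types and 10.82, 10.83, 10.30 and 10.51 in mutants. The genotypes overlapped on both probes, and the second gave -0.11 ± 0.11 (SE, adjusted p = 0.807 in the limma fit over 21146 probes, where 0 probes, or 0%, passed). The repeated spots give the spread within an array. On arrays 1, 3 and 4 the SD of the ratio over the 10 Kdr spots was 0.067, 0.069 and 0.076, and on array 2 it was 0.13 over the 7 spots left after outlier flags. The SD of the ratio between the 4 arrays was 0.24, so the arrays, which differ in animals, dye orientation and hybridisation, spread more than the spots of 1 array did.

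Neither Tie receptor passed. Tek, the TIE2 receptor that binds the angiopoietins, was at 7.94, 7.86, 7.61 and 7.56 in wild types and 7.85, 7.42, 7.65 and 7.71 in mutants, with a ratio of -0.084 ± 0.11 (SE, limma adjusted p = 0.872). The mutant was the lower sample in both male pairs and the higher in both female pairs, and that difference between the sexes did not pass (-0.36 ± 0.17 SE, limma adjusted p = 0.446). Tie1, its partner receptor without a firmly established ligand of its own, was at 9.24, 9.29, 9.09 and 9.12 in wild types and 9.00, 9.24, 9.06 and 9.18 in mutants, with a ratio of -0.063 ± 0.075 (SE, limma adjusted p = 0.850). Tie1 had the lowest SD among wild types of the 12 probes, 0.098. Egfl7 was at 14.06, 14.41, 13.66 and 13.78 in wild types and 14.37, 14.18, 13.86 and 13.82 in mutants, with a ratio of 0.079 ± 0.080 (SE, limma adjusted p = 0.819). The 4 highest Egfl7 levels were those of the 4 males, 2 of each genotype.

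The ligand genes gave the tightest and the widest estimates. Vegfb, whose product binds FLT1 and is abundant in oxidative muscle and heart, was at 12.95, 12.91, 12.73 and 12.70 in wild types and 12.92, 13.00, 12.70 and 12.82 in mutants. Its ratio was 0.033 ± 0.066 (SE), and the interval from -0.13 to 0.20 was the narrowest of the 10 genes (limma adjusted p = 0.914). Vegfa has 2 probes, and the brighter, A_52_P638895, represented the gene. It read 12.63, 13.04, 12.11 and 11.92 in wild types and 12.48, 12.16, 12.73 and 11.90 in mutants, so that the highest wild type came from the second male pair and the highest mutant from the first female pair. The ratio was -0.11 ± 0.19 (SE), with the widest interval of the 10 genes, from -0.59 to 0.37 (limma adjusted p = 0.901). The dimmer probe, A_52_P249424, read 10.89, 10.97, 10.73 and 10.29 in wild types and 10.79, 10.86, 10.81 and 10.15 in mutants. On that probe the 2 samples of each array lay close together, and its ratio was -0.068 ± 0.073 (SE, limma adjusted p = 0.83 over probes).

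Hif1a did not pass the genotype test, and its ratios followed the dyes. It was at 8.20, 7.77, 8.20 and 8.23 in wild types and 7.76, 8.01, 7.81 and 8.55 in mutants. The log2 ratios were -0.44 and -0.40 on arrays 1 and 3, where the mutant carried Cy5, and 0.24 and 0.32 on arrays 2 and 4, where it carried Cy3. The fitted dye term of Hif1a was -0.35, and the genotype ratio beside it -0.068 ± 0.067 (SE, limma adjusted p = 0.809). A smaller dye term of the same sign, -0.26, was fitted for the bright Kdr probe. The SE of these ratios is that left after the dye term.

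**Figure D2:**
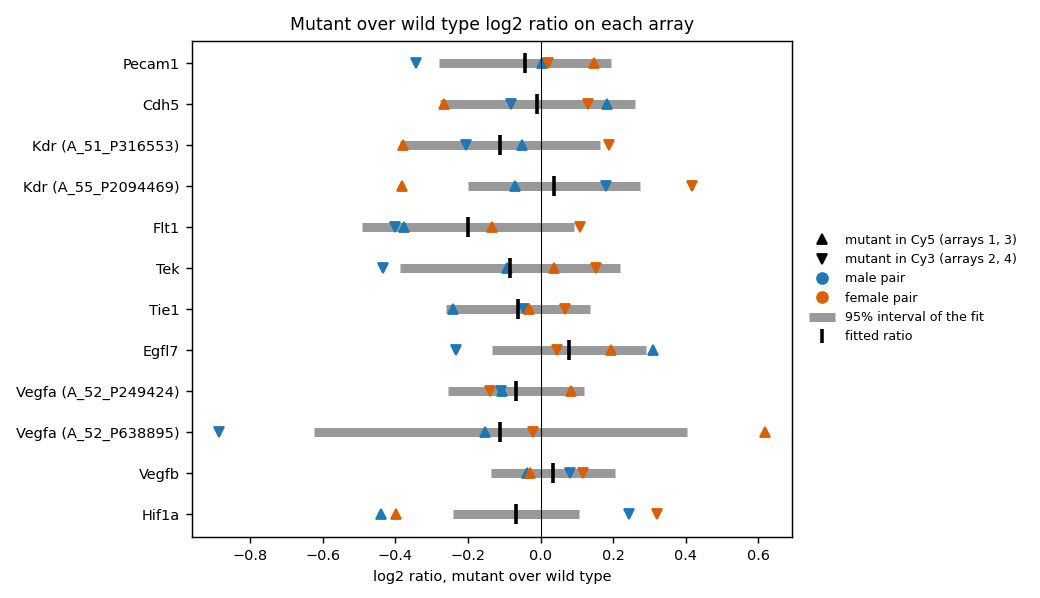
Log2 ratio of mutant over wild type (x axis) for the 12 probes on arrays 1 to 4, with male pairs in blue, female pairs in orange, triangles pointing up where the mutant carried Cy5 and down where it carried Cy3, the fitted ratio of the fit over probes as a black bar and its 95% interval in grey. All 12 intervals cross 0; the arrays of Vegfa probe A_52_P638895 run from -0.89 to 0.62, and those of Hif1a divide by dye.

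In the wider vascular lists, too, no gene was called. Of 30 tested endothelial markers outside the 10 genes, 0 were called by limma, 2 had an unadjusted p under 0.05, 11 were higher and 19 lower, and the median log2 ratio was -0.013. The 2 of smallest p were the water channel gene Aqp1 at -0.21 ± 0.077 (SE) and the apelin receptor gene Aplnr at 0.22 ± 0.079 (SE), each with a limma adjusted p of 0.707. Aplnr was well above background in 3 of 4 wild types and 4 of 4 mutants. Pericyte and vascular smooth muscle markers, the cells that wrap vessels, had 9 of 13 higher, a median of 0.11 and 0 called by limma, with 2 at an unadjusted p under 0.05. Those 2 were the calponin gene Cnn1 at 0.40 ± 0.14 (SE) and the pericyte gene Rgs5 at -0.19 ± 0.075 (SE). Rgs5 read -0.63 and -0.61 on arrays 1 and 3 against 0.12 and 0.36 on arrays 2 and 4. Of the lymphatic markers, 2 of 7 were tested, and Prox1, the defining transcription factor of lymphatic endothelium, was well above background in 0 samples.

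Among the other VEGF and angiopoietin genes 0 of 8 tested were called by limma, with 1 at an unadjusted p under 0.05. That gene was Angpt2, the angiopoietin released by endothelium during vessel remodelling, which was at 7.44, 7.23, 7.21 and 7.29 in wild types and 7.78, 7.69, 7.50 and 7.71 in mutants. The 4 mutants lay above the 4 wild types, and the ratio was 0.38 ± 0.066 (SE), higher on 4 of 4 arrays. Over all genes 1.22% had genotypes that did not overlap, and 10.5% had a ratio of 1 sign on 4 of 4 arrays. It did not pass over all genes (unadjusted p = 0.00202, limma adjusted p = 0.707). Its partner Angpt1, the ligand that activates TEK, was at -0.047 ± 0.078 (SE), and Nrp2, a VEGF co-receptor gene, at -0.14 ± 0.097 (SE). Notch and ephrin genes of vessels had 5 higher and 4 lower of 9 tested, with a median of 0.048 and 0 called by limma (0 at an unadjusted p under 0.05). The lowest p values there were those of the Notch ligand genes Jag1 at 0.18 ± 0.072 (SE) and Dll4 at 0.19 ± 0.081 (SE). Each was above 0 on 4 of 4 arrays, though Jag1 read only 0.0079 on array 1 and Dll4 only 0.0016 on array 3.

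No gene of the oxygen-sensing lists was called. HIF subunits and oxygen sensors had 4 higher and 3 lower of 7 tested, with a median of 0.0078 and 0 called by limma (0 at an unadjusted p under 0.05). Egln3, a HIF prolyl hydroxylase gene, was at 0.13 ± 0.085 (SE) and Vhl, of the ubiquitin ligase that removes HIF alpha subunits, at 0.13 ± 0.087 (SE). HIF target genes were 9 higher and 9 lower of 18, with a median of 0.012, 0 called by limma and 2 at an unadjusted p under 0.05. Car9, the membrane carbonic anhydrase induced in hypoxia, was at -0.40 ± 0.071 (SE, unadjusted p = 0.00213, limma adjusted p = 0.707). It was lower on 4 of 4 arrays, where 10.5% of all genes had a ratio of 1 sign. Its levels were 7.91, 8.17, 7.90 and 8.68 in wild types and 7.60, 7.57, 7.64 and 8.25 in mutants, and they overlapped between the groups. Ldha, the lactate dehydrogenase gene, was at -0.18 ± 0.069 (SE) and differed by dye, with 0.25 and 0.34 on arrays 1 and 3 against -0.71 and -0.60 on arrays 2 and 4. Other regulators of muscle angiogenesis had 6 higher and 8 lower of 14 tested, a median of -0.014 and 0 called by limma (0 at an unadjusted p under 0.05). Col18a1, whose collagen yields endostatin, was at 0.25 ± 0.11 (SE), and Timp1, of an inhibitor of matrix metalloproteinases, at 0.32 ± 0.14 (SE).

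Markers of blood spread more widely over the arrays than the endothelial ones. Erythroid markers, carried by blood within the vessels, had a positive ratio in 7 of 7 tested genes with a median of 0.88, and 0 passed by limma (2 at an unadjusted p under 0.05). Their list medians were -0.28 and 0.29 on the male arrays 1 and 2 and 1.68 and 1.82 on the female arrays 3 and 4. On the same arrays the medians of the 30 endothelial markers were 0.035, -0.17, -0.051 and 0.11, and those of the 10 genes -0.081, -0.16, -0.030 and 0.11. The other list medians were -0.039 for 6 macrophage, 0.035 for 5 adipocyte, 0.10 for 8 Schwann cell, -0.023 for 8 fibroblast and 0.071 for 12 muscle fibre markers, with 0 called by limma in each and 0, 1, 0, 1 and 2 genes at an unadjusted p under 0.05. The latter were the adipsin gene Cfd at 0.80 ± 0.18 (SE), the collagen gene Col3a1 at -0.57 ± 0.11 (SE) and the slow-fibre troponin genes Tnnt1 at 0.42 ± 0.092 (SE) and Tnnc1 at 0.39 ± 0.13 (SE). On arrays 1 to 4 Cfd read 0.14, 1.59, -0.73 and 2.23, and Col3a1 0.44, -1.24, -0.073 and -1.39. Tnnt1 read 0.78, -0.25, 1.04 and 0.085, and Tnnc1 0.29, 0.081, 0.39 and 0.79. The SEs are those left after the dye term.

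**Figure D3:**
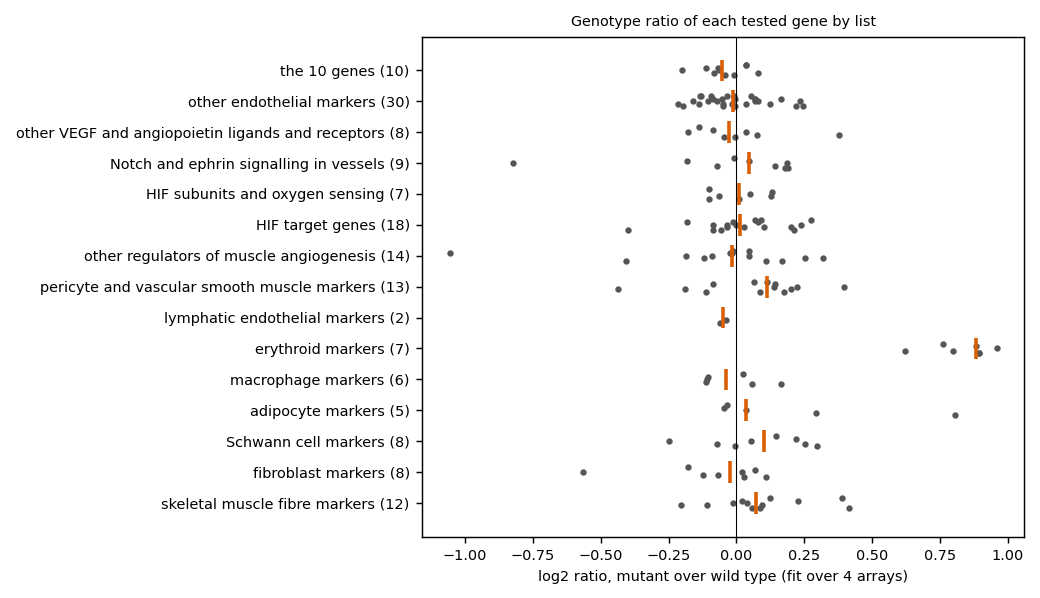
Fitted log2 ratio of mutant over wild type (x axis) for each tested gene (points) by list (rows, number of genes tested in brackets), with list medians in orange. The endothelial, VEGF, Notch and HIF lists centre near 0, with medians from -0.053 to 0.048, while 7 of 7 erythroid genes lie above 0 with a median of 0.88.

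The second question was whether the genotype effect differed between the sexes. Of the 10 genes, Vegfa was called, with a male minus female difference in log2 ratio of -0.82 ± 0.14 (SE), a 95% interval from -1.16 to -0.48 and a limma adjusted p of 0.0226. The term called 445 of all genes (3.89%), 420 of them with lower ratios in males, and the male wild types are the 2 samples with the largest share of probes above background. The part of those samples in the call was not tested. Mean ratios of Vegfa were -0.52 in male and 0.30 in female pairs, from -0.15 and -0.89 on arrays 1 and 2 and 0.62 and -0.021 on arrays 3 and 4. The 2 spots of the probe lay close together on each array, from -0.97 to -0.80 on array 2 and from 0.55 to 0.68 on array 3. In each sex 1 array was far from 0 and the other near it, and the fitted dye term was 0.34. With no dye term the difference was the same, -0.82, with a limma adjusted p of 1.00, and with no replicate block its adjusted p was 0.483. The dimmer Vegfa probe gave -0.080 with an interval from -0.44 to 0.28 (limma adjusted p = 0.916 over probes), so 1 of 2 probes was called (1 of the 12 probes, against 5.91% of all probes), and the mean of both probes gave -0.45 (adjusted p = 0.193). The probes match different transcript records of Vegfa, and the files do not say which exons they cover.

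The other 9 genes were not called for a difference between the sexes. Flt1 came nearest, with mean ratios of -0.39 in male and -0.012 in female pairs and a difference of -0.38 ± 0.15 (SE, limma adjusted p = 0.358). Of the further endothelial markers 0 of 30 were called (limma), the lowest p being that of Ramp2, a co-receptor for adrenomedullin, with mean ratios of -0.50 in males and 0.10 in females (adjusted p = 0.0960). Genes called in related lists were Notch1 (-1.61 in males, -0.038 in females), the angiogenesis inhibitor gene Vash1 (-2.15 and 0.043), the adhesion molecule gene Mcam (-1.01 and 0.13), the lymphatic hyaluronan receptor gene Lyve1 (-0.46 and 0.34) and Angptl4 (0.44 and -0.79). For Notch1 and Vash1 both male wild types stood above the other 6 samples, at 9.29 and 10.71 for Notch1 and at 16.36 and 17.31 for Vash1. Angptl4, a lipoprotein lipase inhibitor, had array ratios of 1.98, -1.11, 0.19 and -1.77 that changed sign with the dye. Lyve1 was well above background in 2 of 4 mutants. Fgf2, of a fibroblast growth factor that stimulates endothelial cells, had mean ratios of -0.78 in males and -0.032 in females and was not called (limma adjusted p = 0.0862), with 3 of 4 mutants well above background. Differences that also missed the threshold were -0.37 for the endothelial gene Plvap, -0.48 for the Notch target gene Hey1, -0.36 for P4ha2, -0.34 for Ndufa4l2 and -0.27 for Pdpn.

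The third comparison, added after the values were seen, was of level between the sexes over both genotypes, from the mean of the 2 samples of each array. Egfl7 was higher in males, at a mean log2 level of 14.26 against 13.78, a difference of 0.48 ± 0.12 (SE) with an interval from 0.21 to 0.75 (limma adjusted p = 0.0364). The 4 male samples, from 14.06 to 14.41, lay above the 4 female samples, from 13.66 to 13.86. The mutants among them read 14.37 and 14.18 in males and 13.86 and 13.82 in females, an order that the separation of all samples requires. The part of the 2 male wild types in this difference was not tested. Egfl7 was 1 of 10 genes called, where 6.55% of all genes were called. Leaving out 1 array leaves 1 sex with a single array, which is assumed to vary like the other sex. Egfl7 then missed the threshold each time, with a difference of 0.52 (limma adjusted p = 0.0905), 0.44 (0.157), 0.46 (0.213) and 0.50 (0.178) for arrays 1 to 4. Males lay wholly above females in Cdh5, Flt1, Egfl7 and Vegfb, 4 of 10 genes, and females wholly above males in 0 of 10. Over all genes 14.4% did not overlap between the sexes in either direction, and 5.31% had males above. The direction was known when this comparison was added. Of the 10 genes, 4 had an unadjusted p under 0.05 in this limma fit, namely Egfl7, Cdh5, Flt1 and Vegfa. All 4 were higher in males. Over all genes 19.7% had such a p and 7.59% had one with males higher. The differences were 0.40 ± 0.12 (SE, limma adjusted p = 0.0814) for Cdh5, 0.34 ± 0.13 (SE, 0.155) for Flt1 and 0.42 ± 0.16 (SE, 0.172) for the brighter Vegfa probe. Vegfb, at 0.21 ± 0.12 (SE, 0.384), was not one of the 4 (limma unadjusted p = 0.114). Both Vegfa probes were higher in males on average, by 0.42 and 0.38, with overlap.

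The probes of Kdr did not match in this comparison. The probe printed 10 times was higher in males by 0.43 ± 0.13 (SE, limma adjusted p = 0.0597 over probes), with 4 males from 10.82 to 11.04 and 4 females from 10.30 to 10.68. The brighter probe gave -0.022 ± 0.13 (SE, adjusted p = 0.950 over genes). The values of Pecam1 (-0.056), Tek (0.13), Tie1 (0.084) and Hif1a (-0.26) did not pass. Of the 30 further endothelial markers 18 were higher in males, 2 were called by limma, 1 of them higher in males, and the median difference was 0.065 against -0.048 over all genes. Pericyte and smooth muscle markers were higher in males in 11 of 13 (median 0.23), where 4630 of all 11453 genes were. Of the 13, 2 were called by limma, where 6.55% of all genes were. Of these 2, 1 was higher in males, while Mcam was lower (-0.79 ± 0.13 SE, limma adjusted p = 0.0019). Of the 8 other VEGF and angiopoietin genes 5 were higher in males and 1 was called, Angpt1, lower in males (-0.70 ± 0.13 SE, limma adjusted p = 0.0050). HIF target genes were higher in males in 7 of 18 (median -0.030). Markers of other cells mostly went the other way. Medians were -0.45 for fibroblast (0 of 8 higher in males), -0.39 for macrophage (1 of 6) and -0.70 for adipocyte markers (1 of 5). They were -0.33 for Schwann cell (1 of 8), -0.98 for erythroid (0 of 7) and -0.096 for muscle fibre markers (3 of 12). The part of these cell types in the difference was not tested, and each sex rests on 2 arrays.

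**Figure D4:**
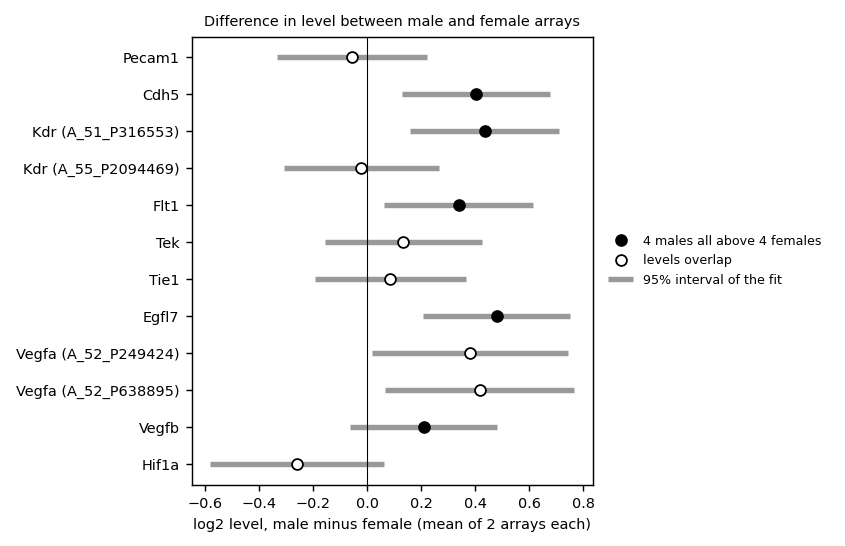
Male minus female log2 level (x axis) of the 12 probes, from the mean of both samples on each of 2 male and 2 female arrays, with 95% intervals of the fit over probes in grey and filled points where all 4 males lie above all 4 females. Cdh5, Flt1, Egfl7, Vegfb and Kdr probe A_51_P316553 have filled points, and Egfl7 has the largest difference, 0.48.

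The 7 genes used as endothelial markers, Pecam1, Cdh5, Kdr, Flt1, Tek, Tie1 and Egfl7, did not all vary together. Platelets and leukocytes also express Pecam1. Centred on each gene's mean, their average log2 level was 0.11 and 0.21 in male wild types, 0.065 and 0.011 in male mutants, -0.072 and -0.16 in female wild types and -0.13 and -0.024 in female mutants. The correlation of each gene with the average of the other 6, over 8 samples that share arrays in pairs, ran from 0.84 for Flt1 and 0.75 for Cdh5 down to -0.022 for Pecam1 and -0.11 for the bright Kdr probe. The 5 other tested genes whose levels followed that average most closely were Ankrd6, Rnf144a, Fam124b, Cep164 and Scgb2b15, with Pearson r from 0.98 to 0.95 over the 8 samples. These r were picked as the highest of all genes tested and are given as a description.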

How the data were processed

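Total RNA, 100 ng per sample, was labelled and hybridised to 4 two-colour Agilent arrays, per the labels' protocols. The deposited scanner files give median spot and background intensity on a linear scale, flags of 0 or 1 (other), and a ratio on the log10 scale of processed signals, made with Agilent Feature Extraction 10.7.3.1 per the submitters' processing notes. The value table that the authors deposited holds log2 values. Its channel differences correlated with the scanner ratio at r = 0.985, 0.983, 0.980 and 0.989 on arrays 1 to 4, which gave its scale and direction, and each probe is centred on its median. Column medians in it were -0.035, -0.062, 0.013 and 0.0036 (wild type) and -0.0017, 0.0066, 0.0046 and 0.019 (mutant). How it was made is not stated in the sources used.

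In R 4.3.3 with limma 3.58.1, intensity was corrected by normexp (offset 50), normalized by loess within arrays with control and outlier spots at weight 0, and, for levels, by Aquantile. Accessions were matched to RefSeq (GRCm38.p6), which named 27656 of 55681 probes. A probe was kept if at least 50% of its spots passed the scanner's background flag in each of the 4 samples of a genotype, which left 21146 probes after 6 with outlier flags. The brightest probe represented each of 11453 genes. lmFit and eBayes gave the genotype effect from log2 ratios, beside a dye term (2 residual degrees of freedom), the sex difference with a sex term added (1), and levels as male against female arrays (2). Tests were 2-sided, adjusted by Benjamini-Hochberg over all genes, with 0.05 as threshold, and intervals use the moderated standard errors. Wild type and mutant of a pair share an array and an individual number, and their deviations from group means correlated at r = 0.38, 0.25, 0.12 and 0.50 across genes. The labels number the animals of each genotype as separate individuals, and the number of arrays limits the precision. Scripts were tested on simulated data.

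The 10 genes, the lists and the tests were chosen with earlier results of these data known. One listed gene is not reported here. Named genes are the 10, the 2 genes of smallest p for genotype and the 2 for the sex term in each list, with any gene called, and the 5 genes most like the endothelial average; of lists of other cell types only those called or with an unadjusted p under 0.05 are printed, and Prox1 was named after its values were seen. The comparison of level between the sexes was added after the values were seen.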

Additional observations from a re-analysis of the deposited data

Results flagged for a closer look

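In groups of 4 samples, 36 sets of levels or ratios of the 12 probes were searched for a value far from the rest, and 4 were found, where chance gives about 1 in 20. For Hif1a, wild type 2 at 7.77 stood apart from 8.20, 8.20 and 8.23 (gap over range 0.941). For Flt1, mutant 3 at 12.08 stood apart from 12.33 to 12.36 (0.891). For Vegfa probe A_52_P249424, mutant 4 at 10.15 stood apart from 10.79 to 10.86 (0.900), and the ratio on array 3, 0.084, stood apart from the other 3, which lay from -0.14 to -0.11 (0.850).

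The genotype effect differed between males and females in the limma sex term for Vegfa (male minus female -0.82), Angptl4 (1.23), Notch1 (-1.57), Vash1 (-2.20), Mcam (-1.14) and Lyve1 (-0.80). A difference was also called for 6 of 7 erythroid genes, namely Hba-a2 (-1.43), Alas2 (-1.42), Hbb-bt (-1.77), Hbb-b2 (-2.00), Hba-a1 (-1.64) and Hbb-b1 (-1.87). The term called 3.89% of all genes, 420 of 445 with lower ratios in males. With no dye term, or with the scanner's ratio, it called 0 genes. Globin genes are near-identical copies, so their probes may share signal.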

How the results depend on the processing

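In the genotype test 0 of the 10 genes were called under each alternative run. The median of the 10 genes, -0.053, ran from -0.12 in male pairs to 0.046 without replicate 2, within its spread over arrays (SD 0.11); it was also above 0 in female pairs (0.032). Ratios of Flt1, Egfl7, Vegfb and Hif1a kept their sign in 15 of 15 settings, with Flt1 at -0.012 in female pairs. Some of the settings left these ratios exactly as in the main run and are no separate check of their sign. They are those with no dye term, no replicate block, no filter, a filter on all 8 samples or the mean of all probes. The ratio of Cdh5 turned in 5 settings and that of Vegfa in 3 (0.11 without replicate 2), all without passing. Genes called for genotype over the whole array numbered 267 with median centring, 0 with the scanner's ratio, the authors' table or a filter on all 8 samples, 1 with no dye term, 3 with no replicate block, and from 0 to 0 with 1 replicate left out. The sex term called 0 of the 10 genes with median centring (Vegfa -0.59), the scanner's ratio (-0.80), the authors' table (-0.73), no dye term, no replicate block or the mean of all probes (-0.45), and, over all genes, 0 with the scanner's ratio, 98 with the authors' table, 0 with no dye term and 126 with no replicate block. It cannot be refitted with a replicate left out, which leaves no residual degree of freedom. Between the sexes, 487 genes and 0 of the 10 had a level called in the authors' table, 0 of the 10 with no filter, and 414 to 689 genes and 0 to 1 of the 10 with 1 replicate left out. With 1 array left out, 1 sex has a single array, assumed to vary like the other sex; on that footing Vegfa passed without replicate 3 (0.67, limma adjusted p = 0.0173), against 0.42 in all arrays and 0.16 without replicate 4. The cause of these differences was not tested. With 2 residual degrees of freedom and adjustment over 11453 genes, changes that are not small can be missed in these genes too. Pus1 at -1.90 ± 0.10 (SE) had a limma adjusted p of 0.0454. Angpt2 at 0.38 ± 0.066 (SE) had one of 0.707, and whether it changed cannot be told from these arrays.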
